A study of Mus musculus with 272 samples.

Results

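The 8-cell mouse embryo was examined through the transcripts of 3 sucrose gradients, each loaded with the lysate of about 100 embryos and collected as 10 equal fractions. The 30 fraction libraries of this stage were taken by their labels (8-cell, fractions 1 to 10, gradients A, B and C) from 272 libraries that cover 8 stages, of which 240 are fraction libraries. Embryos were lysed with cycloheximide, which arrests ribosomes on their transcripts, and no genotype contrast or treatment arm was part of this stage. Strain, age and sex of the donors are not given in the sources used here, and each gradient pools embryos, so differences among embryos or among blastomeres were not measured. The labels call the material only oocyte or embryo with its stage, and they do not say that the 3 gradients came from separate collections, so p-values measure the spread between these gradients.

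In such a gradient a free transcript sediments slowly, a transcript with 1 ribosome sediments further, and a transcript covered by many ribosomes (a polysome) sediments furthest. A longer coding region has room for more ribosomes, so fully translated short and long messages peak at different depths. The 8-cell stage is the stage at which mouse blastomeres flatten against each other and polarise (compaction), after the embryonic genome has taken over from maternal transcripts. The labels give each fraction a number only. Fraction 1 was taken as the top, fractions 1 to 5 as the light side and fractions 6 to 10 as the heavy side. Values are CPM, the reads of a gene scaled by the total of its own library, and so a share of each fraction's library. They show neither how much RNA a fraction held nor whether fewer cells or less RNA per cell lay behind a low value.

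The 30 libraries held 0.184 to 30.2 M (mega) reads and 4378 to 7131 genes at 1 CPM or more. Fraction 1 was the shallow end, with 0.184 to 0.396 M reads in the 3 gradients against 1.91 to 30.2 M reads in the other fractions. Pearson's r across genes between gradients ran from 0.54 to 0.66 for single fractions, from 0.76 to 0.77 for heavy means and from 0.73 to 0.75 for light means. Genes are not independent replicates. A gene at 100 CPM or more in the same fraction of 2 gradients was without a read in the third in 1.19% of 35153 cases, so a single 0 does not show absence. The 8 markers of preimplantation embryos fixed for this check were all present, with a summed level of 1031 to 11964 CPM per fraction library. Cumulus and granulosa markers summed to at most 8.48 CPM, and 2 of the 4 in the table, Fshr and Cyp19a1, were at 0 in all 30 libraries. Red blood cell markers (2 of 4 in the table) summed to 76.3 to 133 CPM on the heavy side and 32.9 to 74.8 CPM on the light side of the 3 gradients, and the part of such RNA in the results was not tested.

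The main comparison asked which transcripts lay on the heavy and which on the light side of the same gradient. The ferritin transcripts Fth1 and Ftl1, 8 of 13 coding transcripts of the mitochondrial genome and a large group found mostly in fraction 1 were called on the light side. Genes called on the heavy side included 5 of 42 initiation factors, 2 of 34 proteasome subunits, 3 of 69 splicing proteins, 3 of 36 histones and the embryonic genes Dppa3, Dppa5a and Sox15. Of 9875 genes tested, 82 (0.83%) were called higher in heavy fractions and 175 (1.77%) higher in light fractions. A call required an adjusted p under 0.05 in limma's moderated test paired by gradient, with Benjamini-Hochberg adjustment over all 9875 genes, and a difference of at least 1 on the log2(CPM + 1) scale. The median difference, heavy minus light, was 0.07 over all genes tested, and 2259 genes had an unadjusted p under 0.05. With 3 gradients the calls rest on how the spread is modelled, and a gene that was not called is not shown to be equal on both sides. limma without the mean-variance trend called 0 genes (1861 at an unadjusted p under 0.05), and edgeR on the recovered reads called 0 (1161). edgeR was given reads summed over the fractions of a side, so the shallow fraction 1 weighs little in it. The side means used in limma weigh each fraction alike, so the 2 tests do not compare the same quantity.

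**Figure D1:**
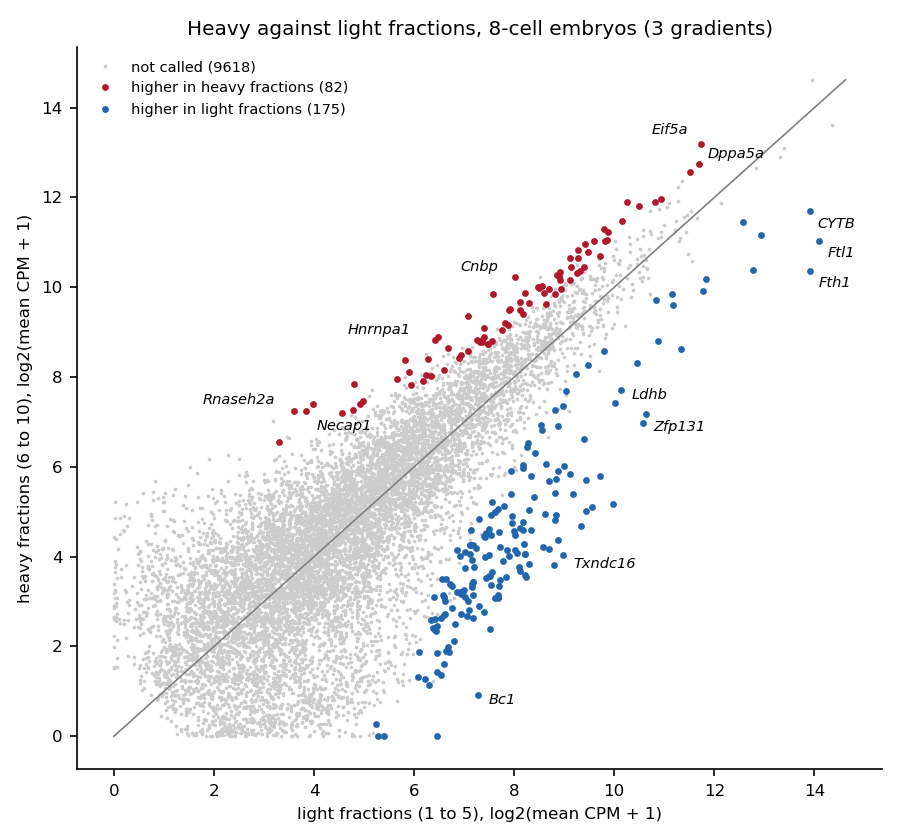
Mean of 3 gradients of the light (x) and heavy (y) side means for 9875 genes, both as log2(CPM + 1). Red points are the 82 genes called higher in heavy fractions, blue points the 175 called higher in light fractions, and the line marks equal values; Fth1, Ftl1 and CYTB lie far to the right of the line at high levels.

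Ferritin stores iron in a shell of heavy and light chains. Its messages are the textbook case of translation held back at the 5′ end. Iron regulatory proteins bind a hairpin, the iron-responsive element, in their 5′ UTR when iron is scarce, and release it when iron is plentiful. Fth1 and Ftl1, the heavy and light chain genes, were singled out after their values were seen. The element has an unpaired C, a short stem and a loop. The letters searched, on the transcript strand of 5′ UTRs, were C, then any 5 bases, then CAGTG and any base. They were found in both genes and in 2 other genes known for such an element. The sites are shown because the 2 ferritin messages were among the most abundant of the light-side calls. Capitals mark the unpaired C and the 6 loop bases. Sequences and positions are from GENCODE M21 on GRCm38, and each site lies in the 5′ UTR within 1 exon.
Fth1, chr19:9982729-9982758, plus strand: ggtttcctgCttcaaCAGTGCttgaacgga
Ftl1, chr7:45459781-45459810, minus strand: tgtgtcttgCttcaaCAGTGTttgaacgga
Slc40a1, chr1:45925467-45925496, minus strand: ttccaacttCagctaCAGTGTtagctaagt
Epas1, chr17:86753765-86753794, plus strand: ccgtacaatCctcggCAGTGTcctgagact
The same letters occurred in 9.09% of the 6698 transcripts with at least 250 bases of 5′ UTR when the last 250 bases before the start codon were read. Fth1, Ftl1 and Slc40a1 had them in that window, and Epas1 further upstream. A match is a description and no evidence of a working element. Among tested genes with that window, the 239 with a match had a median difference of 0.18 and the rest 0.01.

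Fth1 stood at 17102, 11230 and 18069 CPM on the light side of gradients A, B and C and at 1012, 894 and 2053 CPM on the heavy side. Every light value lay above every heavy value. The difference was -3.62 (SE 0.18, limma adjusted p 0.00148), an 11.7-fold higher mean on the light side. Its profile had 1 peak. Fth1 had 2611, 2970 and 3248 CPM in fraction 1 and rose to 34992, 21337 and 41464 CPM in fraction 2. It was down to 2231, 1759 and 3182 CPM in fraction 6 and to 461, 481 and 1726 CPM in fraction 10. Ftl1 also peaked in fraction 2 of all 3 gradients, with 19727, 17613 and 15196 CPM on the light side and 2429, 1576 and 2293 CPM on the heavy side. Its difference was -3.08 (SE 0.16, limma adjusted p 0.00148). Both were called under 15 of 18 alternatives, including each omission of a gradient, and both were called without fraction 1 (-3.88 and -3.27). The pseudogene symbol Ftl1-ps1 followed at -2.98 and may share reads with Ftl1. Epas1 and Slc40a1 were not called. Epas1, a hypoxia-inducible transcription factor, had 117, 97.7 and 88.4 CPM on the light side and 15.4, 51.5 and 25.1 CPM on the heavy side, with no overlap but an adjusted p of 0.11 (limma, difference -1.85). Slc40a1, the iron exporter ferroportin, was too low and variable to compare (0.226 to 26.9 CPM on the light side). Tfrc and Slc11a2, iron uptake genes whose known elements lie in the 3′ UTR, differed by -0.43 (SE 0.37) and 0.36 (SE 0.21) and were not called.

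**Figure D2:**
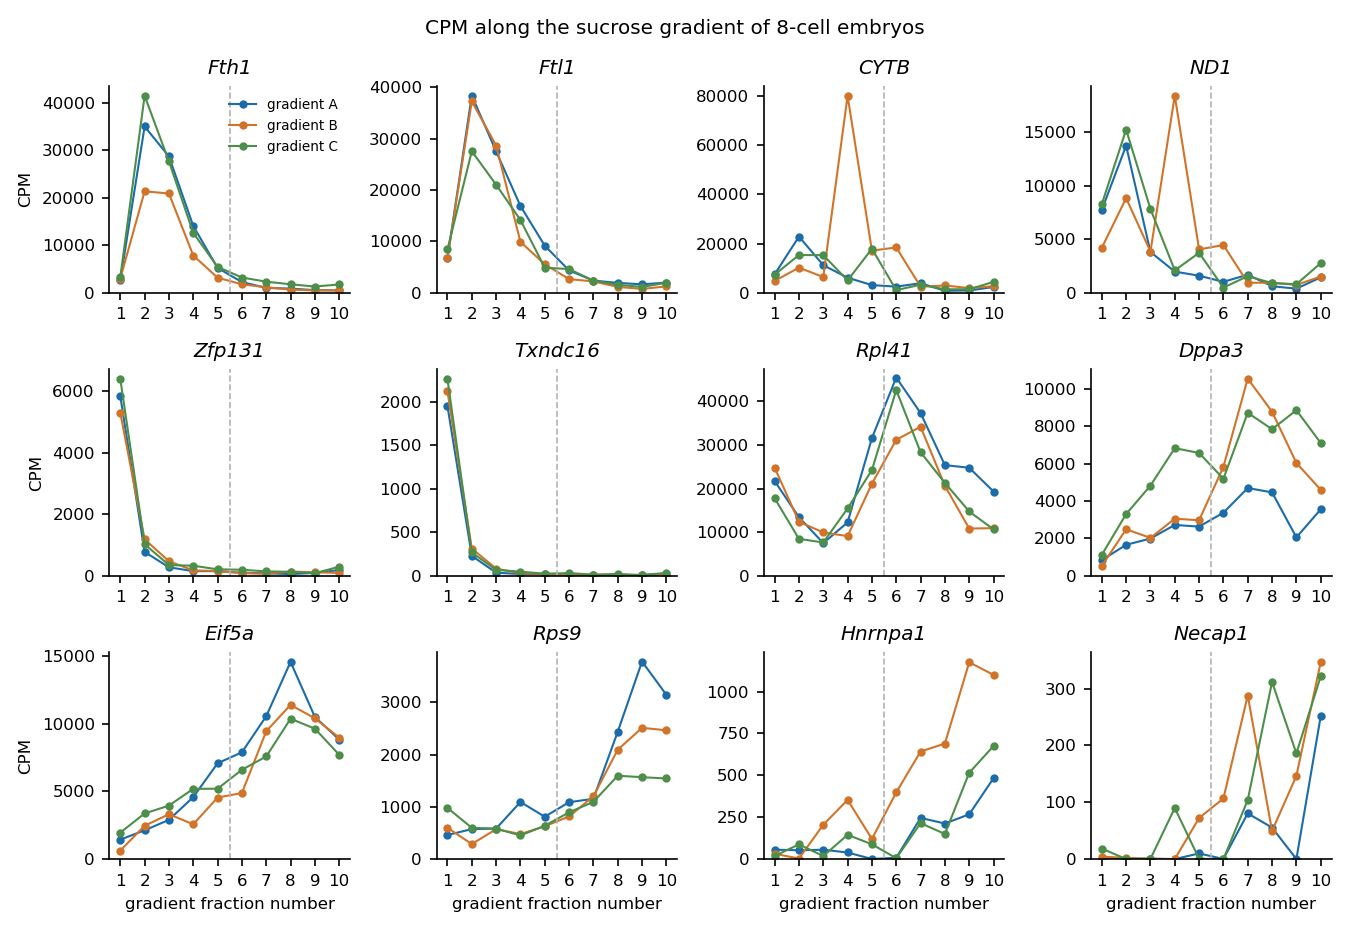
CPM (y, linear, own scale per panel) against fraction number (x) for 12 genes, 1 line per gradient; the dashed line separates the light and heavy sides. Fth1 and Ftl1 peak in fraction 2, Zfp131 and Txndc16 in fraction 1, Rpl41 in fraction 6 or 7 and Eif5a in fraction 8, while CYTB and ND1 of gradient B have their highest value in fraction 4.

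All 13 protein-coding genes of mitochondrial DNA had lower heavy than light values, and 8 of the 13 were called, against 1.77% of all genes. These messages are translated by mitochondrial ribosomes inside the organelle. The list's median difference was -2.19, with -2.24, -2.04 and -2.42 in gradients A, B and C, against 0.07 for all genes tested. CYTB, apocytochrome b, had 10121, 23709 and 12146 CPM on the light side and 2043, 5645 and 2276 CPM on the heavy side. Gradient B was the highest on both sides, and the sides did not overlap (difference -2.26, SE 0.11, limma adjusted p 0.00148). ND1, a complex I subunit, had 5775, 7879 and 7440 CPM on the light side and 1019, 1708 and 1291 CPM on the heavy side. The difference of -2.41 was again without overlap (SE 0.13, adjusted p 0.00153). ND2 (-2.71), ND4 (-1.99), ND5 (-1.63), COX1 (-1.74), COX3 (-2.62) and ATP6 (-3.16) were called as well, the last 2 with calls that were lost when single gradients were left out. COX2, ND3, ND4L, ND6 and ATP8 had differences of -1.52 to -3.04 and adjusted p-values of 0.0688 to 0.206. The 13 genes together made up 4.62% ± 1.38 (SD, n = 3) of CPM in fraction 2 and 0.412% ± 0.158 in fraction 9. Fraction 4 gave 6.21% ± 8.50, and CYTB alone reached 80161 CPM there in gradient B against 6077 and 4986 CPM in A and C. Without gradient B the 6 genes CYTB, ND1, ND2, ND4, ND5 and COX1 were still called.

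Most of the light-side calls came from fraction 1. In 137 of the 175 genes over 50% of the light-side CPM lay in that single fraction, where 1550 of all 9875 genes passed the same mark. Zfp131, a zinc finger protein, had 5829, 5288 and 6385 CPM in fraction 1 and no more than 1184 CPM in any other fraction. Its light means of 1438, 1456 and 1661 CPM stood above heavy means of 105, 101 and 171 CPM (difference -3.62, SE 0.22, limma adjusted p 0.00241). Txndc16 (light 452, 515 and 535 CPM, heavy 13.3, 10.8 and 22.1 CPM) and the kinase gene Nek4 (422, 407 and 510 against 10.9, 6.45 and 22 CPM) showed the same form, with differences of -4.99 and -5.13. The other genes named here by size of difference were Gad2 (-5.20), Alpk2 (-5.15), Matn2 (-5.17), Cdh3 (-5.03), Nmnat1 (-5.01), Pgbd5 and the noncoding Bc1. Pgbd5 had 0 reads in every heavy fraction and a light mean of 41.2 CPM. That mean was 1677-fold the value of 3 reads set against the pooled heavy reads of each gradient. Pooled reads and a mean over fractions are unlike measures, so this fold is only a rough guide. The light side alone admitted Pgbd5 to the test, so its call is no separate support. Bc1, a small cytoplasmic RNA made by RNA polymerase III, had 91.3% of its light-side CPM in fraction 1.

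Bc1 belongs to a list of noncoding RNAs, which was taken as a reference for untranslated RNA. Whether its members bind ribosomes was not tested. Of 31 tested members 4 were called light, against 1.77% of all genes tested, and 0 heavy. The median was -0.74 (-1.05, -0.70 and -0.47 in A, B and C), and 9 of the 31 differences were positive. Without fraction 1 the median was -0.41 over 30 tested members, with 0 calls. Rn7sk, a regulator of transcription elongation, had 212, 179 and 126 CPM on the light and 22.8, 24.7 and 18.6 CPM on the heavy side (difference -2.89). Rn7s2, an RNA of the signal recognition particle, differed by -3.32 and the nuclear Neat1 by -4.39. These 3 also had 66.3% to 76.2% of their light CPM in fraction 1. The library kit primes on poly(A), so RNAs without a tail are measured only in part.

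The genes of the fraction 1 group had longer coding regions (median 1736 bases, against 1308 for all genes tested and 738 for the 82 heavy genes). Their median level in the 8-cell transcriptome (4 pools of 20 embryos) was 31.6 CPM, against 17.5 CPM for all genes tested. Named members came from many lists: Mrpl13, a mitochondrial ribosomal protein (-2.15), Rfc2, a clamp loader subunit (-2.52), Srebf2, the master regulator of sterol synthesis (-3.53), Ndufs1 and Ndufab1 of complex I (-4.30 and -2.55), Zfp873 (-3.29), and the solute carriers Slc13a4, Slc28a3 and Slc1a7 (-4.48, -4.29 and -4.15). In the libraries of other stages the number of these 137 genes with their highest mean in fraction 1 varied. It was 76 in GV oocytes, 80 in MII oocytes, 78 in zygotes and 115 in 2-cell embryos, where 20.0%, 21.3%, 24.2% and 20.3% of all tested genes peaked there. It was 129 in 4-cell embryos, 135 in morulae and 126 in blastocysts, against 18.0%, 19.3% and 24.9% of all tested genes. Fraction 1 libraries held 0.0102 to 7.66 M reads in GV oocytes, 8.63 to 11.5 M in MII oocytes and 4.32 to 8.95 M in zygotes. They held 0.337 to 0.667 M reads in 2-cell embryos and 0.141 to 0.347 M in 4-cell embryos. In morulae they held 0.418 to 0.782 M reads and in blastocysts 2.44 to 4.39 M. The part of depth in these counts was not tested. Because the 8-cell fraction 1 libraries are shallow, the comparison was repeated with fractions 2 to 5 as the light side, a setting chosen after seeing the data. It called 16 genes higher in heavy fractions (0.17% of 9428) and 20 higher in light fractions (0.212%), and none of the 137 was among them. The 137 were grouped by their high share of light-side CPM in fraction 1, so leaving that fraction out removes most of their light signal. Their loss therefore follows largely from how the group was chosen. It cannot show whether the shallow depth of fraction 1 lay behind their calls.

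Of the 38 light-side genes outside that group 19 were also called without fraction 1. Ldhb, the lactate dehydrogenase subunit of the early embryo, had 1152, 737 and 1475 CPM on the light side and 173, 170 and 280 CPM on the heavy side. The sides were far apart in every gradient (difference -2.41, SE 0.21, limma adjusted p 0.00536), with the peak in fraction 3. Ldhb was the called member among 16 tested genes of glycolysis and lactate (0 heavy, 1 light, median -0.67), against 1.77% light calls among all genes tested. In that list Aldoa, aldolase, differed by 0.01 (SE 0.32). Other genes of this kind, named after their values were seen, were the peroxidase Prdx2 (light 1728, 1084 and 1407 CPM, heavy 342, 216 and 400 CPM, difference -2.16), Mcu, the mitochondrial calcium channel (-3.96), and Tet3, the methylcytosine dioxygenase. Tet3 was uneven, with 648, 63.4 and 149 CPM on the light side and 58.4, 7.69 and 13.5 CPM on the heavy side. The heavy value was far below the light one in every gradient even so, and the difference was -3.24 (SE 0.42, adjusted p 0.0157). Fbxw21 and Snai3 had differences of -5.90 and -5.17 at low levels (light means of 86.6 and 37.6 CPM). Both were under 1 CPM on the heavy side, so the light side alone admitted them to the test. Fbxw21 and Snai3 lost their calls without fraction 1.

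Of 42 initiation factor genes tested, 5 were called heavy, against 0.83% of all genes tested, and 0 light. The median was 0.56 (0.67, 0.50 and 0.60 in A, B and C), and 15 of the 42 differences were negative. Eif5a, a factor that helps ribosomes past difficult peptide bonds, had 10473, 9021 and 8380 CPM on the heavy side and 3624, 2705 and 3934 CPM on the light side. Each heavy value exceeded each light value (difference 1.45, SE 0.15, limma adjusted p 0.00784). Its level in fraction 1 was at most 1956 CPM, and in fraction 8 Eif5a had 14574, 11399 and 10373 CPM. Eif4h, a cofactor of the helicase eIF4A, had 352, 859 and 760 CPM against 72.0, 79.0 and 250 CPM (difference 2.43, SE 0.37, adjusted p 0.0268). Eif4e, the cap-binding protein, Eif5, which triggers GTP hydrolysis at the start codon, and the helicase Eif4a1 differed by 1.58, 1.51 and 1.42. In the list of elongation factors and other messages with a terminal oligopyrimidine tract, 2 of 16 tested genes were called, both heavy, against the same 0.83% (median 0.64). They were Rack1, a scaffold on the small subunit (1.51), and Hnrnpa1, which also belongs to the splicing list (2.38).

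Levels matter for reading such lists. Of the 82 heavy calls, 68 lay among the 2463 tested genes with the highest transcriptome level (above 63.2 CPM), where the median difference was 0.41. It was -0.45 among the 2464 genes with the lowest level. The initiation, elongation, proteasome and splicing lists had median transcriptome levels of 399, 607, 386 and 145 CPM. Their heavy calls and medians therefore have to be read against the highest group (68 of 2463 called heavy), not against all genes tested alone. Cytosolic ribosomal protein genes sat at the 0.41 of that group: their median over 78 genes was 0.40 (0.41, 0.48 and 0.33 by gradient). Within the list 5 genes were called heavy and 3 light, against 0.83% and 1.77% of all genes tested. Rps9 had 2322, 1818 and 1339 CPM on the heavy side and 705, 513 and 650 CPM on the light side (difference 1.53, SE 0.20, adjusted p 0.0173, limma). Rps3 (1.41), Fau (1.33), Rpl18 (1.05) and Rps27a (1.03) were the other heavy calls. Rps2 went the other way, with 5431, 2738 and 2858 CPM on the light side and 1532, 940 and 1012 CPM on the heavy side. The sides of Rps2 did not overlap, and the difference was -1.62 (SE 0.14, adjusted p 0.00489). Its peak was in fraction 2, as for Rpl12 (-1.20), whereas Rplp1 (-1.14) was highest in fraction 1. Ribosomal protein genes have many processed copies, and 2 Rps2 pseudogene symbols were called beside Rps2, so reads may be split among copies.

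Proteasome genes had the highest median of the lists, 1.06 over 34 of 37 tested genes (1.19, 1.12 and 0.66 by gradient), and 31 of the 34 differences were positive. Of the 34, 2 were called, against 0.83% of all genes tested and 68 of the 2463 genes with the highest transcriptome level. Psmc1, an ATPase of the regulatory particle, had 137, 224 and 98.9 CPM on the heavy and 30.3, 28.4 and 20.7 CPM on the light side (difference 2.43, SE 0.42, limma adjusted p 0.0387). Psmb4, a core subunit, differed by 1.64 (adjusted p 0.0249). Along the gradient the list's median level relative to each gene's own mean was lowest in fraction 1 (-1.15 ± 0.76, SD, n = 3) and highest in fraction 9 (1.34 ± 0.21).

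Among 69 tested splicing genes 3 were called heavy and 0 light (53 of 69 positive, median 0.70, with 0.90, 0.98 and 0.38 by gradient). Heavy calls made up 0.83% of all genes tested and 68 of the 2463 genes with the highest transcriptome level. Hnrnpa1, an abundant RNA-binding protein of the nucleus, had 243, 801 and 312 CPM on the heavy side and 40.9, 143 and 71.5 CPM on the light side. Gradient B was high on both sides, and within each gradient the heavy value was several times the light one (SE 0.27, limma adjusted p 0.0117). Srsf3, a splicing regulator, and Snrpb, a core protein of the small nuclear ribonucleoproteins, differed by 1.61 and 1.29. Exosc3, Exosc4 and Exosc7 encode subunits of the RNA exosome, which degrades RNA from the 3′ end. They were called heavy (2.62, 2.08 and 2.26), as were 0.83% of all genes tested. Only Exosc3 was named by rule, and the other 2 were picked after seeing their values. The remaining subunits are not shown here, so these calls do not describe the complex as a whole.

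Among the 12 heavy genes with the largest differences were Rnaseh2a (4.37), Necap1 (3.69), Gpn3 (3.39), Mfn2 (3.03), Sae1 (2.83), Aar2 (2.83), Exosc3, Mrfap1 (2.57), Eif4h, Psmc1 and Aamp (2.43). Rnaseh2a encodes the catalytic subunit of ribonuclease H2, which removes ribonucleotides from DNA. It had 224, 92.8 and 138 CPM on the heavy side and 26, 6.75 and 0.588 CPM on the light side. Necap1, an endocytic adaptor, had 77.5, 187 and 185 CPM against 2.30, 15.8 and 21.9 CPM. In both genes the lowest heavy value exceeded the highest light value several times over. Of these 12, only Mrfap1 and Eif4h were called under each omission of a gradient and without fraction 1. Cnbp, a zinc-finger RNA-binding protein, and Ppp4c, a phosphatase subunit, also met both conditions. Cnbp had 824, 1580 and 1192 CPM on the heavy side and 134, 358 and 281 CPM on the light side (difference 2.28, SE 0.20, adjusted p 0.00547), and both were named after their values were seen.

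Of 36 tested histone genes 3 were called, all heavy, against 0.83% of all genes tested, and 19 of the 36 differences were positive. The 3 genes encode replacement variants, which are made outside S phase: H3f3b, H3f3a (1.40) and H2az1 (1.31). H3f3b had 1641, 3089 and 2860 CPM on the heavy side and 655, 834 and 1165 CPM on the light side. H2az1 had 1548, 1989 and 1789 CPM on the heavy side and 633, 737 and 766 CPM on the light side, with no overlap (SE 0.15, limma adjusted p 0.0118). The list's median was 0.14. Most replication-dependent histone messages lack a poly(A) tail and are measured only in part by this kit.

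Respiratory chain genes coded in the nucleus had 1 call on the heavy and 2 on the light side of 79 tested. These shares are near the 0.83% and 1.77% of all genes tested. The median over 79 of them was 0.32 (0.50, 0.36 and 0.09 by gradient), with Atp5d, a subunit of the ATP synthase rotor, called heavy (1483, 831 and 839 against 597, 231 and 300 CPM; difference 1.55) and the 2 complex I genes of the fraction 1 group called light. Mitochondrial ribosomal protein genes had a median of 0.50 over 76 genes, with Mrpl12 heavy (1.07) and Mrpl13 light, again near the shares of all genes tested.

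Of 36 tested lineage and pluripotency regulators 3 were called, all heavy, against 0.83% of all genes tested (median 0.24, with 20 of 36 positive). Dppa3, a maternal and pluripotency factor that protects methylation in the zygote, had 3632, 7163 and 7548 CPM on the heavy side and 1972, 2217 and 4533 CPM on the light side. The light value of gradient C exceeded the heavy value of gradient A, so the sides overlapped across gradients but not within them (difference 1.10, SE 0.20, limma adjusted p 0.044). Dppa5a, an RNA-binding pluripotency marker, had 8836, 6348 and 5377 CPM against 3882, 3329 and 2725 CPM (1.03, SE 0.11, adjusted p 0.0107), and the transcription factor Sox15 differed by 1.41. Pou5f1, the pluripotency factor Oct4, had 476, 490 and 385 CPM on the heavy side and 264, 214 and 188 CPM on the light side, but at a difference of 1.02 its adjusted p was 0.069. Of 39 tested genes of compaction, polarity and Hippo signalling 0 were called by limma, against 0.83% heavy and 1.77% light of all genes tested. For a list of this size 0 calls is near those shares. edgeR called 0 of all 9875 genes, so its 0 here says nothing about this list. F11r, a junction protein, differed by 0.67 (SE 0.29), the Hippo effector Wwtr1 by -0.83 (SE 0.31) and its partner Yap1 by -1.57 (SE 0.60). For Cdh1, the adhesion molecule of compaction, the values were 31.9, 114 and 30.5 CPM heavy and 47.6, 30.1 and 10.8 CPM light, a difference of 0.91 with an SE of 0.66 that this design could not separate from 0.

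Maternal-effect and subcortical complex genes, which serve the oocyte and the earliest cleavages, had the second lowest median of the lists, -1.20 over 35 of 44 tested genes (-2.06, -0.90 and -1.20 by gradient). Of the 35 differences 32 were negative, yet the single call was Dppa3 on the heavy side, against 0.83% of all genes tested. Their median transcriptome level was 5.49 CPM, so most were scarce at this stage. Zbed3, a member of the subcortical complex, had 419, 657 and 500 CPM on the light side and 90.9, 232 and 260 CPM on the heavy side. These sides did not overlap, but the adjusted p was 0.0514 (limma, difference -1.54). Zp3, an egg coat protein chosen after seeing its values, had 340, 233 and 157 CPM against 80.6, 28.6 and 73.4 CPM, with an adjusted p of 0.0659 at -2.05.

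In the remaining lists few genes or none passed. Mitotic genes had a median of 0.07 over 40 tested genes and 0 calls, with Ccnb1, cyclin B1, at 587, 1055 and 843 CPM heavy and 626, 946 and 797 CPM light, and Ube2c at 0.70 (SE 0.19). DNA replication genes had a median of 0.38 over 45 with Rfc2 as the call, while Cdt1 and Rrm2 differed by 0.38 and 0.01. Sterol genes had 0.50 over 18 with Srebf2 as the call, and Fdft1 and Msmo1 stood at -0.27 and -1.58. The calls of Rfc2 and Srebf2 are 1 light call per list, against 1.77% of all genes tested. Chaperones had a median of 0.46 over 28 (Cct7 0.44, Hsp90ab1 -0.04). Aminoacyl-tRNA synthetases had -0.37 over 21 (Farsa 1.27, Kars -0.89), and early-embryo activation genes -0.18 over 17 (Trim43a 0.14, Trim43b 0.62). Each of these lists had 0 calls in limma, against 0.83% heavy and 1.77% light of all genes tested. For lists of this size 0 calls is near those shares. edgeR called 0 genes in the whole comparison. Zinc finger genes of the Zfp series (-0.25 over 179) had 2 light calls and solute carriers (-0.08 over 162) had 3, both shares near the 1.77% of all genes tested. The 18S ribosomal RNA, measured in part by a poly(A) kit, differed by -0.64 (adjusted p 0.0878).

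**Figure D3:**
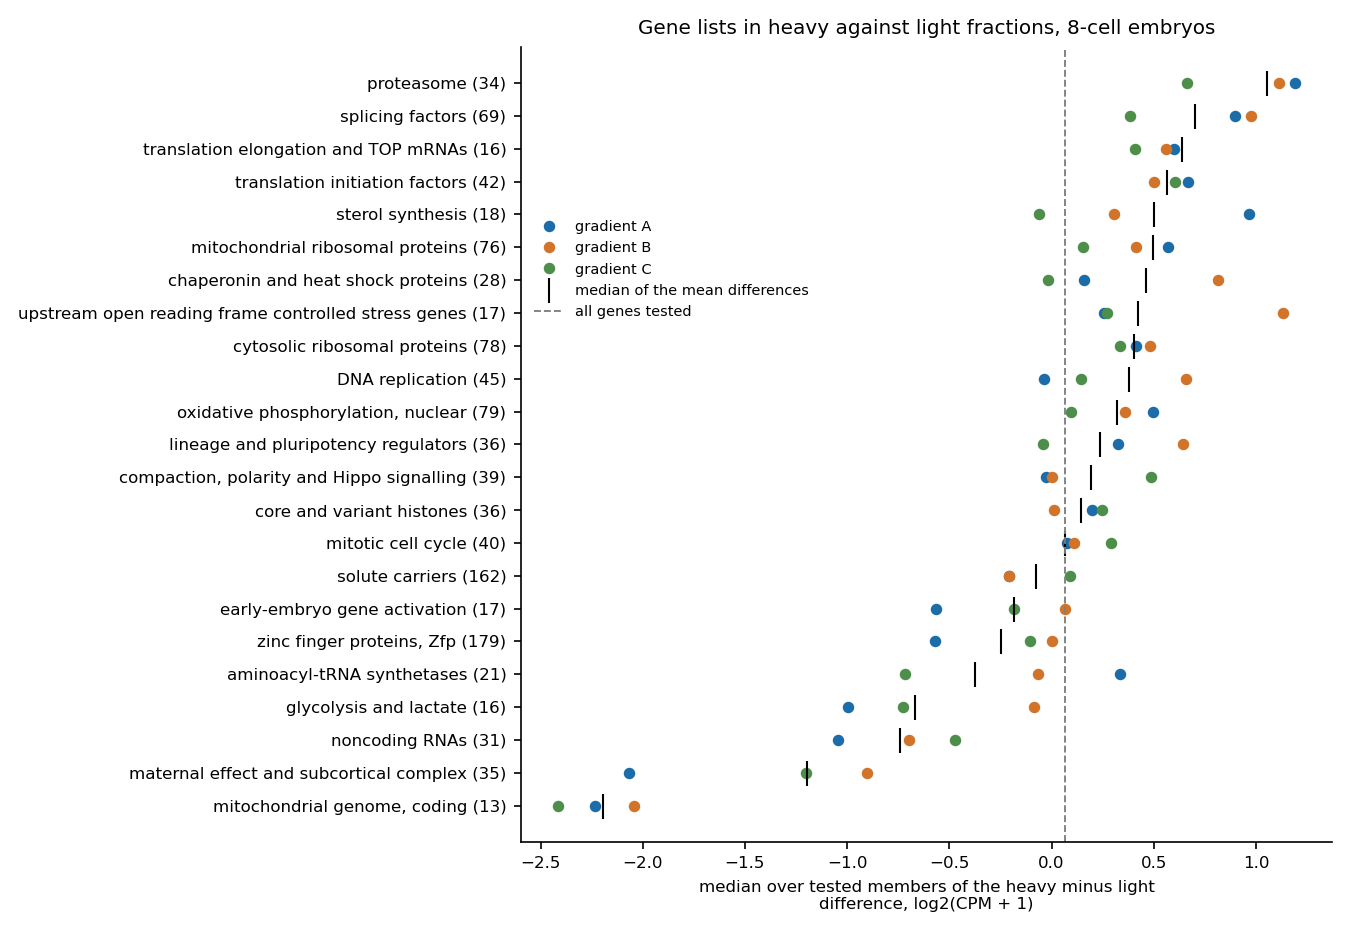
Median over the tested members of each gene list (number in parentheses) of the heavy minus light difference in log2(CPM + 1), 1 point per gradient; the black mark is the median of the gene-wise means and the dashed line the median of all genes tested, 0.07. The proteasome list stands highest at 1.06 and the mitochondrial genome lowest at -2.19.

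Genes with upstream open reading frames, short coding regions ahead of the main one that limit its translation, were fixed as a list for their known behaviour in stress. Of 17 tested members 0 were called by limma (median 0.42, with 0.26, 1.13 and 0.27 by gradient). Among all genes tested 0.83% were called heavy and 1.77% light, so 0 calls in so short a list says little. edgeR called 0 genes in the whole comparison. Atf4, the transcription factor of the integrated stress response, had 806, 896 and 860 CPM on the light side and 424, 509 and 952 CPM on the heavy side. Its profile peaked in the middle, with 1948, 1841 and 1936 CPM in fraction 5 (in gradient C fraction 6 was higher, at 2227 CPM) and 77.5, 247 and 436 CPM in fraction 10. Odc1, the first enzyme of polyamine synthesis, was also highest in fraction 5 on the mean of the gradients (difference -0.32, SE 0.17). A side comparison averages over such middle peaks.

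Position along the heavy side was compared with coding length. The 1619 genes with a mean of at least 100 CPM and a known coding length (94.8% of 1707) were grouped by that length, and each gene's CPM was expressed as a share of its sum over the 10 fractions. The 93 genes with up to 300 coding bases had their largest heavy share in fraction 6, 13.3% ± 0.85 (SD, n = 3). Genes of over 300 and up to 450 bases (196) had it in fraction 8, 13.1% ± 1.13, and those up to 600 bases (195) in fraction 8, 12.7% ± 0.54. Genes up to 900 bases (332) had it in fraction 9, 12.8% ± 0.86, and those up to 1200 bases (275) in fraction 10, 12.8% ± 0.42. The order was alike in each gradient: the heavy peak fell in fraction 6 or 7, then 7 or 8, then 8, then 9 or 10, then 10. Up to 1200 bases (1091 genes) Spearman's rho between coding length and the mean heavy fraction number was 0.39 (0.29, 0.34 and 0.36 in A, B and C), a description across genes that share libraries. Over all 1619 genes the same measure was 0.14.

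Genes of over 1200 and up to 1500 bases (217) also had their largest heavy share in fraction 10 in each gradient, 13.3% ± 0.96. Fraction 10 is the last one, so no later peak could be seen. Above 1500 bases the heavy peak fell in fraction 6 or 10, depending on the gradient. Genes over 3000 bases (59) had 25.6% ± 0.85 of their CPM in fraction 1 and 6.96% ± 1.60 in fraction 10. The median heavy minus light difference was 0.25, 0.44, 0.57, 0.57 and 0.30 over the 5 groups up to 1200 bases, then 0.26, 0.11, -0.22 and -0.59 up to the longest. Over all 1619 genes rho between coding length and the mean fraction number over fractions 1 to 10 was -0.04.

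**Figure D4:**
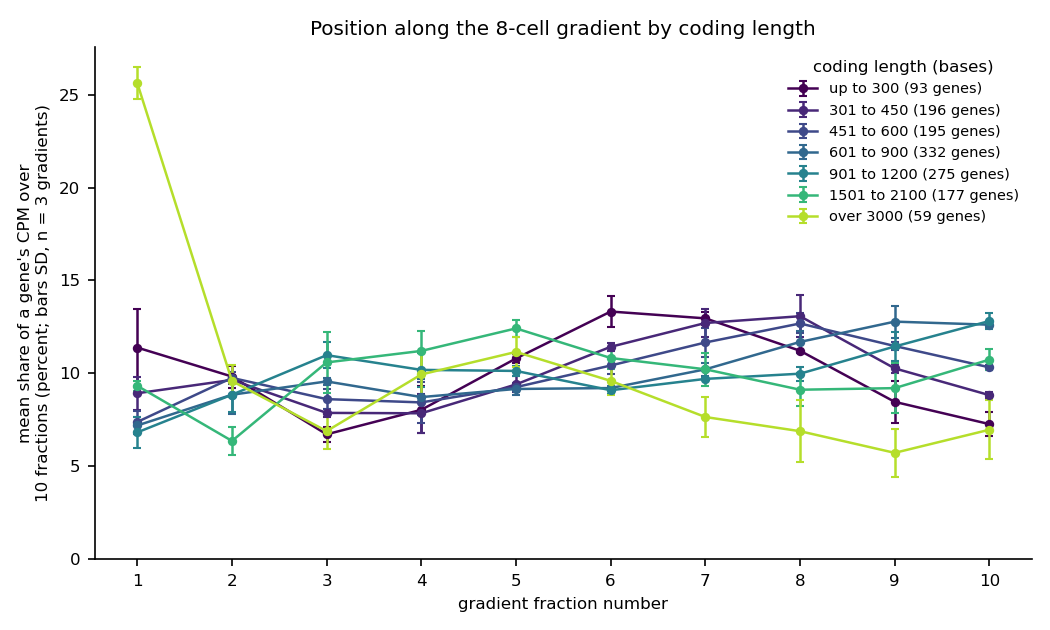
Mean share of a gene's CPM in each of the 10 fractions (y, percent; bars are the SD over 3 gradients) against fraction number (x) for genes grouped by coding length; 7 of the 9 groups are drawn. The heavy-side maximum moves from fraction 6 for up to 300 bases to fraction 10 for over 900 and up to 1200 bases. Genes over 3000 bases are highest in fraction 1. The group of over 1200 and up to 1500 bases, not drawn, also has its heavy-side maximum in fraction 10.

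Single genes were picked here to illustrate these steps, and other genes depart from them. Rpl41, which encodes one of the shortest ribosomal proteins, was highest in fraction 6 in gradients A and C and in fraction 7 in gradient B (45489, 31196 and 42617 CPM in fraction 6, against 37340, 34204 and 28348 CPM in fraction 7). Its side difference was 0.66 (SE 0.10, limma adjusted p 0.0249), under the size required for a call. Dppa3 (450 coding bases) peaked in fraction 7 on the mean of the gradients, Eif5a (462) in fraction 8, Rps9 (582) in fraction 9 and Hnrnpa1 (1119) in fraction 10. By contrast, Rpl5 (891) peaked in fraction 3 and Rpl3 (1209) in fraction 6 on that mean, and neither was called. The light-side transcripts fell outside this order: Fth1 and Ftl1, with 546 and 549 coding bases, peaked in fraction 2, and Rps2, with 906, did so too.

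The difference between sides was then compared with that of the neighbouring stages, morula and 4-cell, each with 3 gradients of about 100 embryos made in the same way. Against the morula, 8 of 12339 genes (0.0648%) differed in their heavy-light difference, 4 in each direction (limma, adjusted p under 0.05 and at least 1). edgeR called 3 of them, Ubb, Ubb-ps and Rpl41. Ubb, a polyubiquitin gene, lay on the light side in 8-cell embryos and on the heavy side in morulae. Its differences were -1.53, -1.04 and -1.28 in 8-cell gradients and 1.47, 1.62 and 1.35 in morula gradients (difference between stages -2.76, SE 0.17, adjusted p 0.000993). In CPM, heavy and light means were 924 ± 184 and 2269 ± 542 in 8-cell embryos (SD, n = 3) and 3489 ± 411 and 1246 ± 66.9 in morulae. This call held under 20 of 21 alternatives. The pseudogene symbol Ubb-ps moved with it (-2.70) and may share its reads. Ppp1ca, a catalytic subunit of protein phosphatase 1 (-1.99), and Sgta, a co-chaperone (-1.56), were likewise lower in 8-cell embryos.

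Rpl41 (1.71), Rpsa (1.64) and Rps29 (1.43), ribosomal protein genes, and the mitochondrial COX1 (1.60) had higher differences in 8-cell embryos than in morulae. Rpl41 stood at 0.82, 0.48 and 0.68 in 8-cell gradients and at -0.62, -1.37 and -1.15 in morula gradients, without overlap. COX1 was on the light side at both stages, at -1.74 ± 0.12 (SD, n = 3) in 8-cell embryos and -3.34 ± 0.19 in morulae. The ferritin genes did not pass this test. Fth1 stood at -3.62 ± 0.47 and -4.49 ± 0.21 (adjusted p 0.289, limma) and Ftl1 at -3.08 ± 0.38 and -3.59 ± 0.21 (adjusted p 0.364). Leaving out single gradients cut the 8 calls to between 1 and 8, and Ubb was the call that stayed in each of these 6 fits.

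**Figure D5:**
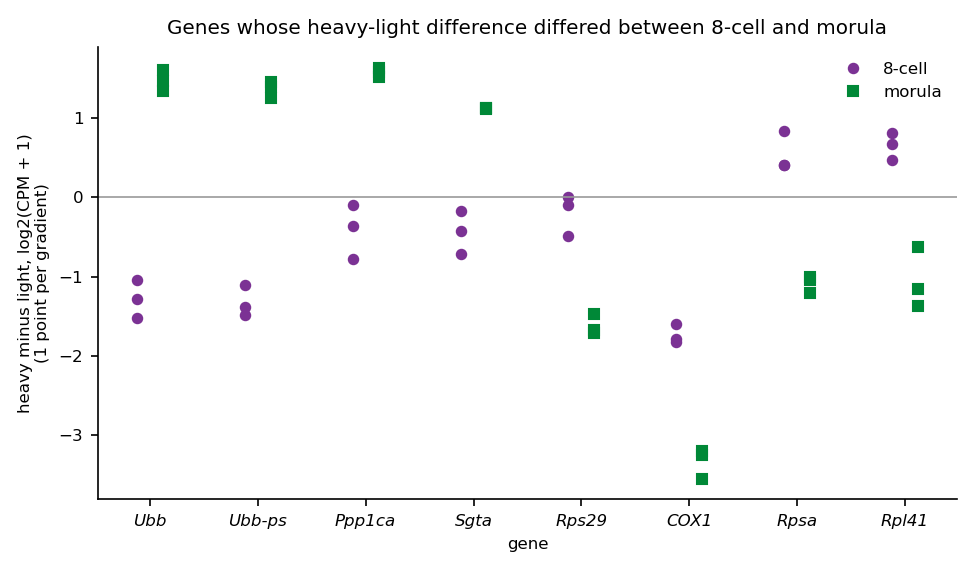
Heavy minus light difference in log2(CPM + 1) (y) of the 8 genes called between stages (x), 1 point per gradient, circles for 8-cell embryos and squares for morulae. Ubb, Ubb-ps, Ppp1ca and Sgta lie lower in 8-cell embryos, the other 4 genes higher, and the 2 stages overlap in none of the 8.

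Against the 4-cell embryo, 0 of 11401 genes (0%) were called by limma, with 790 at an unadjusted p under 0.05, and edgeR called 0 as well (554 at an unadjusted p under 0.05). The median of all genes was 0.40 higher in 8-cell embryos as deposited and -0.04 after quantile normalization, so single differences have to be read against that shift. It was 0.16 without 4-cell gradient A, and 0.48 and 0.51 without B and C. In 4-cell gradients A, B and C the median over the 13 mitochondrial genes was -0.63, -2.35 and -2.44. Ftl1 stood at -0.69, -1.73 and -1.77, and Fth1 at -2.59, -2.48 and -1.98. Most heavy columns of 4-cell gradient A sum past what CPM allow, and the effect of this was not tested. Fth1 was at -2.35 ± 0.33 (SD, n = 3) in 4-cell gradients and -3.62 ± 0.47 in 8-cell gradients without overlap, and Ftl1 at -1.40 ± 0.62 and -3.08 ± 0.38 (both adjusted p 0.707, limma). Eif5a differed by 0.25 (SE 0.23) between the stages.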

How the data were processed

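The authors deposited 1 table of CPM values per gene symbol and library; the name of the deposited table gives the unit. In 9 columns of other libraries, symbols listed more than once push the sum past what CPM allow. These columns were recorded as a signal that the authors deposited on the same scale. They include most heavy fractions of 4-cell gradient A, which enter the comparison with 4-cell embryos. Per the submitters' processing notes, reads were processed with Trim Galore 0.6.7, FastQC, HISAT2 2.2.1, featureCounts 2.0.1 and edgeR on GRCm39. That build was not used here: coding lengths and the sites printed come from GENCODE M21 on GRCm38, matched by symbol (8988 of 9875 tested genes). Of 15854 symbols, 159 in 76 groups had identical values, and 1 per group was kept (15771). In the 30 libraries 100% of values were whole reads within 0.05 reads, and these reads gave depth, floors (3 reads) and the edgeR alternative. Intervals and floors cover counting error only. Over 30 replicate pairs chi-square per degree of freedom was at least 23.4, so none was a duplicate.

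CPM was averaged over fractions 6 to 10 and 1 to 5 of each gradient, as log2(mean + 1), which understates the change of low genes. Genes entered at 1 CPM or more in 3 of 6 side means, so 1 side alone could admit a gene. limma 3.58.1 (R 4.3.3) tested the paired difference with a mean-variance trend, and edgeR 4.0.16, on reads summed per side, was an alternative. Both sides of a gradient come from the same lysate, which is the pairing; deviations of its sides correlated at 0.11, 0.09 and 0.05 in A, B and C. Scripts were tested on simulated data. Genes were named by rule: the 12 largest called differences per direction (at least 10 CPM on the higher side), up to 4 called members per list or its 2 highest, and 5 per direction between stages; predicted genes were not named, and a few genes that the rule names are not reported here. The 24 lists and their members were chosen with earlier results of these data known, and the table's names for mitochondrial genes were matched after seeing it. Spearman's rho and medians used Python 3.11.15.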

Additional observations from a re-analysis of the deposited data

Results flagged for a closer look

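The 8 genes whose heavy-light difference was called different between 8-cell embryos and morulae (limma, adjusted over 12339 genes) stand out because a test of the difference itself passed. The 8-cell minus morula values were -2.76 for Ubb, -2.70 for Ubb-ps, -1.99 for Ppp1ca and -1.56 for Sgta, and 1.43 for Rps29, 1.60 for COX1, 1.64 for Rpsa and 1.71 for Rpl41. Ubb, Ubb-ps, Ppp1ca, Sgta, Rpsa and Rpl41 had opposite signs of the mean difference at the 2 stages. Ubb and Ubb-ps are near-identical copies and count as 1 observation. In morulae Rpsa and Rps29 had 3497 ± 749 and 5016 ± 1031 CPM (SD, n = 3) on the light side, against 650 ± 240 and 2758 ± 165 CPM in 8-cell embryos.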

How the results depend on the processing

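The counts of the main comparison, 82 heavy and 175 light, moved with the processing. Without a filter on low values, without the mean-variance trend and with edgeR on recovered reads, 0 heavy and 0 light genes were called, and with medians of fractions 0 and 3. A filter of 10 CPM gave 170 heavy genes, the slope on fraction number 286 and 516, all 8 stages in the fit 473 and 1074, and fractions 6 to 10 against 2 to 5 gave 16 and 20, of which 34 were among the 257. Without the replicate block, that is without pairing by gradient, 39 heavy and 213 light genes were called. Leaving out 1 gradient gave 22 to 96 heavy genes (46 without A, 22 without B) and 82 to 139 light genes (98 without A, 82 without B). The 8 calls between 8-cell and morula became 2 without a filter, 4 with medians, 4 with fractions 8 to 10 against 1 to 3, 5 after quantile normalization, 3 with the slope, 82 with all 8 stages, 0 without the trend and 3 with edgeR. They were 8 with the replicate block across stages and 1 to 8 with a gradient left out (1 without 8-cell C, morula B or morula C, 3 without morula A, 4 without 8-cell A). Letters pair no samples across stages (correlation of deviations from -0.02 to 0.02). The 0 calls between 8-cell and 4-cell became 483 with all 8 stages and stayed at 0 in the other fits, replicate block and omissions included. Of 1398 values of 79 named called genes under alternatives, 849 kept the call, 549 lost it and 0 changed sign. These genes were named because they were called in the same data, which favours a stable sign. Of 770 values of 44 named genes that were not called, 48 changed sign, 32 gained a call and 690 did neither. List medians kept their sign in every alternative, except for aminoacyl-tRNA synthetases and compaction genes (without C), Zfp genes (without A), early-embryo genes (medians), mitotic genes (medians, and without fraction 1) and solute carriers (8 of 18). The cause of these shifts was not tested. Depth limits fraction 1 most.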

Other observations

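The 8-cell values of several genes can be set beside those of the other stages. The heavy minus light difference of Fth1 was -1.51 ± 0.06 (SD, n = 3 gradients) in GV oocytes, -1.45 ± 1.14 in MII oocytes, -1.59 ± 0.23 in zygotes, -1.81 ± 0.17 in 2-cell embryos and -2.35 ± 0.33 in 4-cell embryos. It was -3.62 ± 0.47 in 8-cell embryos, -4.49 ± 0.21 in morulae and -4.56 ± 0.13 in blastocysts, with its peak in fraction 2 at each of these stages. Ubb was on the light side up to the 8-cell stage (-1.66 ± 0.23 in 2-cell and -2.22 ± 0.54 in 4-cell embryos) and on the heavy side in morulae and blastocysts (1.48 ± 0.13 and 2.00 ± 0.60). The median over the 13 mitochondrial genes was -0.89 ± 1.97 in GV oocytes, -0.04 ± 0.14 in MII oocytes, 0.80 ± 0.79 in zygotes, -1.56 ± 0.68 in 2-cell and -1.81 ± 1.02 in 4-cell embryos. It was -2.23 ± 0.19 in 8-cell embryos, -2.93 ± 0.61 in morulae and -4.03 ± 0.26 in blastocysts. These values across stages were not tested beyond the comparisons with 4-cell embryos and morulae.

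Some of the most abundant embryo transcripts were not called to either side. Alppl2, an alkaline phosphatase, had 5594, 4231 and 9546 CPM on the heavy side and 7927, 6692 and 7330 CPM on the light side. Mt1, metallothionein, had 9460, 5607 and 7776 CPM against 10912, 9395 and 10410 CPM. Map1lc3b, an autophagosome protein, had 6955, 7644 and 8545 CPM heavy and 4244, 3823 and 4701 CPM light, a difference of 0.86 (SE 0.11, limma adjusted p 0.0167) under the size required for a call. These 3 genes were chosen after their values were seen.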
